A study of Rattus norvegicus with 6 samples.

Results

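Voltage-gated sodium channels, voltage-gated calcium channels, hyperpolarization-activated (HCN) channels, transient receptor potential (TRP) channels, Piezo channels and acid-sensing (ASIC) channels were examined as 1 group of rat genes in the inferior alveolar nerve (IAN). The members were taken by gene symbol from the families Scn, Cacn, Hcn, Trpa, Trpc, Trpm, Trpv, Piezo and Asic, with the subunits that accompany the pores, which gave 72 genes in 15 classes out of the 34106 genes of the table. The rule itself reads only symbols, but the group was proposed with earlier results of these data known. Of these 72 genes, 48 had enough reads in enough samples to be tested and 24 did not.

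The RNA came from the IAN of male Sprague–Dawley rats, bought at 6 to 7 weeks of age and operated on after acclimation. IANX rats had the IAN and the mental nerve cut through, with a gap of 1 mm left between the stumps and no suture, after bone over the nerve had been taken away. Sham rats are described only as having had the skin of the cheek and the masseter incised. The treatment label calls the IANX samples transfection and the Sham samples none. Nerves were taken on day 14 post-surgery, from 3 rats in each group, and sequenced as whole tissue from poly-A RNA, so each value is a sum over all cells in the piece.

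Sodium channels open when the membrane depolarizes and carry the upstroke of the action potential. Voltage-gated calcium channels let calcium in during that depolarization, and their alpha2delta, beta and gamma subunits set how many pores reach the membrane and how they gate. HCN channels open on hyperpolarization and shape repetitive firing, whereas TRP, Piezo and ASIC channels respond to heat, chemicals, stretch or acid and start the signal in sensory endings and in many non-neuronal cells. In a nerve trunk the cell bodies of the sensory neurons are absent, since they lie in the trigeminal ganglion, and the resident cells are Schwann cells, perineurial cells, fibroblasts, vessel cells and macrophages.

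Total gene counts were 13988750 to 16440720 in the IANX samples and 14630127 to 17105402 in the Sham samples. CPM below are counts relative to library size after TMM scaling, and 1 count was worth 0.0545 to 0.0593 CPM in IANX and 0.069 to 0.0833 CPM in Sham. Where 3 values of a group are given, they belong to samples 1, 2 and 3 in that order. Markers of other tissues and of myelin differed between the samples. Summed odontoblast and ameloblast markers were 56080, 1950 and 60760 CPM in IANX 1, 2 and 3, against 148, 876 and 129 CPM in Sham 1, 2 and 3, so IANX 2 stood apart from the other IANX samples, and 6 of the 7 tested markers were higher in IANX. Summed epithelial markers were 1733, 37.5 and 3820 CPM in IANX 1, 2 and 3, against 391, 474 and 416 CPM in Sham 1, 2 and 3, and 5 of the 6 tested were higher in IANX. Nearly all of the Sham sum was Cdh1, with 129, 19.3 and 319 CPM in IANX, against 372, 447 and 402 CPM in Sham, whereas Dsp, Epcam, Krt14 and Perp in IANX 2 were above every Sham sample and Krt5 in IANX 2 (2.40 CPM) was below every Sham sample (12.0 to 21.1 CPM). The myelinating Schwann cell marker sum was 3781 to 13990 CPM in IANX and 173400 to 226300 CPM in Sham, and all 10 of them were lower in IANX. Markers of Schwann cells without myelin or of repair Schwann cells, a list that includes the member Scn7a, went in both directions. Their sum was 617, 1230 and 875 CPM in IANX, against 693, 613 and 693 CPM in Sham, with 4 of 9 tested higher and 2 lower. Most of the Sham sum was Scn7a itself, with 97.7, 272 and 194 CPM in IANX, against 426, 376 and 441 CPM in Sham. The other lower marker was L1cam, and the higher ones were Gdnf, Ncam1, Ngfr and Shh. Ngfr had 177, 574 and 191 CPM in IANX, against 21.0, 26.0 and 20.7 CPM in Sham. The perineurial marker sum was 611 to 830 CPM in IANX and 2137 to 2503 CPM in Sham, with 3 of 5 tested lower and 0 higher. Most of the Sham sum was Itgb4, with 229, 422 and 417 CPM in IANX, against 1913, 1954 and 1651 CPM in Sham. Slc2a1 and Krt19 were also lower, whereas Tjp1 did not pass. Cldn1 did not pass either, with 108, 174 and 167 CPM in IANX, against 134, 95.4 and 85.7 CPM in Sham. In bulk tissue, fewer cells of a type and less RNA per cell cannot be told apart.

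Promoters of 6 members are shown because the results below turn on these genes: Scn7a, the most abundant sodium channel gene per length, Trpv6, Trpv1 and Trpv3 among the lower members, and Trpm7 and Trpv4 among the higher ones. They are RefSeq sequences of the GRCr8 assembly, 250 bases before and 50 bases after the start of the gene, printed 5′ to 3′ on the gene's strand. They lie at chr3:71846235-71846534 (minus strand) for Scn7a, chr4:71489618-71489917 (minus strand) for Trpv6, chr10:58349686-58349985 (plus strand) for Trpv1, chr10:58381804-58382103 (plus strand) for Trpv3, chr3:134588064-134588363 (minus strand) for Trpm7 and chr12:47598938-47599237 (plus strand) for Trpv4. Capitals mark letters that match 1 of 7 motifs looked for on both strands.
Scn7a: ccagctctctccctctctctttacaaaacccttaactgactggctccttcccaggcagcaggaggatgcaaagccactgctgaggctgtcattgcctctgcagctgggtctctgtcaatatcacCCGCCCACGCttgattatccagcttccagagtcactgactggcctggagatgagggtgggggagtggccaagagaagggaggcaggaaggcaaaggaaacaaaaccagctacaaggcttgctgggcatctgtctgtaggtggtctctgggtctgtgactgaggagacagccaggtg
Trpv6: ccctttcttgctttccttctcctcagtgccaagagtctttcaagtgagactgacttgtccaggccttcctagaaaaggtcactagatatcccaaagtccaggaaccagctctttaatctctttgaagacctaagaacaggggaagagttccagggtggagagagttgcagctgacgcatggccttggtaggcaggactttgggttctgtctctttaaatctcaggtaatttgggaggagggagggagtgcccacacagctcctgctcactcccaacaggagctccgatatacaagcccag
Trpv1: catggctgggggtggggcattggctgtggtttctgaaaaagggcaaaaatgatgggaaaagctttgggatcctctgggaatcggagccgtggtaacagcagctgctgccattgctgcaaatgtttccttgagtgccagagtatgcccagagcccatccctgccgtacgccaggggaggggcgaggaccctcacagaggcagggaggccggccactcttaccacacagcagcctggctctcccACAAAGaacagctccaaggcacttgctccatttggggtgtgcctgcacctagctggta
Trpv3: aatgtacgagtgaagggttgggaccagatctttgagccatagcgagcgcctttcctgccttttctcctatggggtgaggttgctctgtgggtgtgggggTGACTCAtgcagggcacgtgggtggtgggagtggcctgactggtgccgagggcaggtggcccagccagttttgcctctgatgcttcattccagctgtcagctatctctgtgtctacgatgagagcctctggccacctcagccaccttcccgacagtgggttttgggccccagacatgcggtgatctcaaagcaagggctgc
Trpm7: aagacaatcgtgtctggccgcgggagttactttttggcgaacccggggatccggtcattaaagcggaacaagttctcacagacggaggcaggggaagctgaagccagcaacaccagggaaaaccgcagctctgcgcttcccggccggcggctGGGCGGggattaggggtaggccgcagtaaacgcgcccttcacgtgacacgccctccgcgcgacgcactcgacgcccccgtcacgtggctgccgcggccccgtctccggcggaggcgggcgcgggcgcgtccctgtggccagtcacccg
Trpv4: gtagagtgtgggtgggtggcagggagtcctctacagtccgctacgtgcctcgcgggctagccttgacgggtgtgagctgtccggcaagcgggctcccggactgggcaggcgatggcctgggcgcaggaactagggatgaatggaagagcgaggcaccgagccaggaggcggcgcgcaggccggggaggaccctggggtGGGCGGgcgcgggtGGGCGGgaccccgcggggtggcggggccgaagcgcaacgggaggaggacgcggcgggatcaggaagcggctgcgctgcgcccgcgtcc
The motifs were the GC box GGGCGG, the TATA box TATAAA, the cyclic AMP element TGACGTCA, the AP-1 site TGANTCA, the SOX site ACAAAG, the EGR site GCGTGGGCG and TTCAGCACC, a part of the longer REST element. In the promoter of Scn7a a GC box at -126 and an EGR site at -125, both on the opposite strand, share letters, Trpv1 has a SOX site at -8, Trpv3 an AP-1 site at -151, Trpm7 a GC box at -98, Trpv4 a GC box at -52 and another at -38, and Trpv6 has none of the 7, with positions of the first letter counted from the gene start. Of the 72 members, 51 matched the promoter table by symbol and 46 had exactly 1 promoter on the same chromosome as in the gene table. The GC box was found in 4 of 8 higher and 4 of 9 lower members with a promoter, and in 33.1% of all 33365 promoters. The SOX site was found in 2 of 8 higher members, Cacna1e and Trpm2, in 2 of 9 lower members, Cacna1c and Trpv1, and in 18.8% of all promoters. The EGR site, present in 0.545% of all promoters, was found in 1 member, Scn7a, and the AP-1 site, present in 7.34%, in Trpv3 among the lower members and in 0 of the 8 higher ones. No TATA box, cyclic AMP element or partial REST site was found among these 17 promoters of higher and lower members, against 14.2%, 1.83% and 0.357% of all promoters. A match is a string of letters and says nothing of whether a factor binds.

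In the comparison of IANX with Sham by the edgeR quasi-likelihood test, 14 of the 48 tested channel genes passed as higher and 15 as lower post-IANX at an adjusted p under 0.05, and 19 did not pass. These are 29.2% higher and 31.2% lower, against 17.8% higher and 16.6% lower over all 15374 tested genes. The 15 lower genes had log2 fold changes of -4.01 to -1.14, and the 14 higher genes 0.55 to 4.30. All 15 lower genes and 13 of the 14 higher ones changed by more than 2-fold. The median log2 fold change of the tested members was 0.31, against 0.08 over all tested genes, and the median of its size without sign was 1.34, against 0.59. Every IANX sample lay above every Sham sample for 16 members and below for 16, and the groups overlapped for the other 16, whereas 27% of all tested genes had IANX entirely above and 24.5% entirely below. The excess of higher members over all genes did not hold throughout. With 1 sample left out, 9 members (18.8%) were higher without IANX 3, 5 (10.4%) without Sham 1, 4 (8.33%) without Sham 2 and 7 (14.6%) without Sham 3, against 11.1%, 11%, 7.81% and 7.37% of all genes in these fits, so that the share without Sham 1 or Sham 2 was near that of all genes. Without IANX 1, 10 members (20.8%) were higher, against 12.9% of all genes. The lower members were 10 to 17 (20.8% to 35.4%) with 1 sample left out, against 10.3% to 22.1% of all genes. By limma on log2(FPKM + 1), where 30 members were tested, 6 (20%) were higher and 12 (40%) lower, against 14.7% and 19.2% of all genes. Without the filter of that fit, where 71 members were tested, 3 (4.23%) were higher and 12 (16.9%) lower, against 7.02% and 10.4% of all genes. With DESeq2, 15 members were higher and 15 lower, against 20.5% and 19.8% of all tested genes. Where the samples were scaled by library size alone, the median of all genes was 0.53 instead of 0.08, 80.1% instead of 51.7% of the calls were higher, and 18 members (37.5%) were higher and 11 (22.9%) lower, against 38.5% and 9.55% of all genes, so that the higher members were then at the share of all genes.

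**Figure D1:**
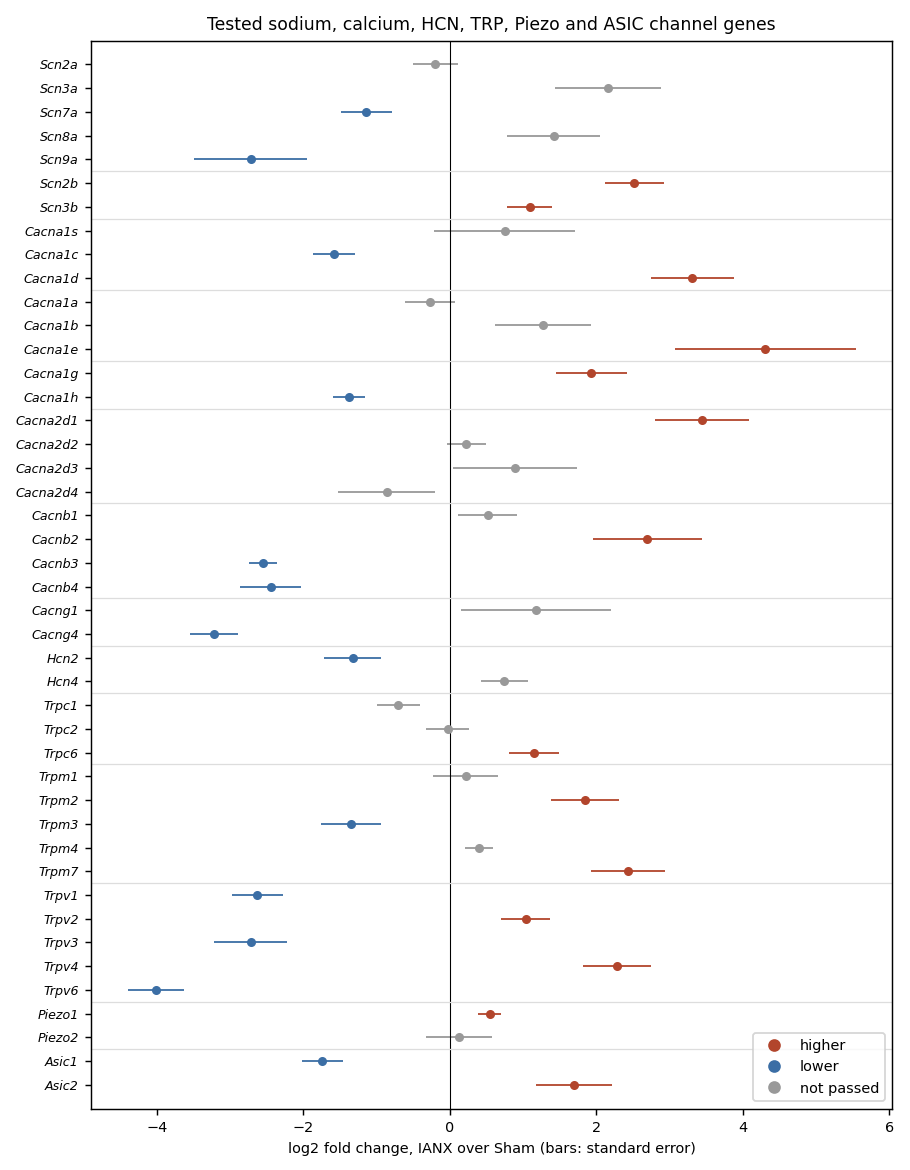
Log2 fold change of 44 of the 48 tested channel genes, IANX over Sham, with bars of 1 standard error, ordered by class with grey lines between classes (red, higher; blue, lower; grey, did not pass). The lower genes run from -4.01 for Trpv6 to -1.14 for Scn7a, the higher ones from 0.55 for Piezo1 to 4.30 for Cacna1e, and genes of both colours stand side by side in classes such as the TRPV and TRPM channels.

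Of the 15 classes, 7 held both higher and lower genes and 7 held called genes of 1 direction. Gamma subunits (0 higher and 1 lower of 2 tested) had a lower gene, and the P/Q-, N- and R-type pores (1 and 0 of 3), alpha2delta subunits (1 and 0 of 4) and Piezo channels (1 and 0 of 2) had higher genes. The L-type pores (1 higher and 1 lower of 3), T-type pores (1 and 1 of 2), calcium channel beta subunits (1 and 2 of 4), TRPM (2 and 1 of 5), TRPV (2 and 3 of 5) and ASIC channels (1 and 1 of 2) held both. The single TRPA gene, Trpa1, was not tested.

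Among the sodium channel alpha subunits, Scn7a (ENSRNOG00000029342, chr3:52777214-52849907 on the minus strand, all gene positions being in rn6) encodes an atypical channel that senses extracellular sodium and is known from Schwann cells. It had 97.7, 272 and 194 CPM in IANX, against 426, 376 and 441 CPM in Sham. Every IANX sample was below every Sham sample, with IANX 1 the lowest (log2 fold change -1.14 ± 0.35 (SE), adjusted p = 0.0392). Scn9a (ENSRNOG00000006639, chr3:52583951-52664209 on the minus strand), the threshold sodium channel of nociceptors, had 0.226, 2.89 and 1.304 CPM in IANX, against 6.904, 15.2 and 7.31 CPM in Sham. It was lower in IANX, and the level in IANX 1 was the lowest of the 6 samples (log2 fold change -2.72 ± 0.77 (SE), adjusted p = 0.031). Both calls were lost without IANX 3 or without any 1 Sham sample (adjusted p 0.0942 to 0.109 for Scn7a and 0.0594 to 0.116 for Scn9a).

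Scn3a, a sodium channel prominent in the embryonic nervous system, had 12.7, 3.27 and 1.78 CPM in IANX, against 1.45, 1.17 and 1.33 CPM in Sham. All IANX samples lay above all Sham samples, but the difference did not pass (log2 fold change 2.16 ± 0.73 (SE), adjusted p = 0.0545), and it passed as higher without IANX 2 (adjusted p = 0.0307) or without IANX 3 (adjusted p = 0.0281). Scn8a, the main sodium channel of nodes of Ranvier, had 4.13, 0.817 and 3.38 CPM in IANX, against 0.690, 1.17 and 1.26 CPM in Sham, and did not pass (adjusted p = 0.119). Without IANX 2 it passed as higher (adjusted p = 0.0108). Scn2a, best known from brain, had 3.62, 2.83 and 3.38 CPM in IANX, against 4.56, 3.33 and 3.397 CPM in Sham, which overlapped, and did not pass (adjusted p = 0.636).

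The other 4 sodium channel alpha genes fell below the filter on low counts. Scn1a (chr3:52381975-52510507 on the minus strand), an axonal sodium channel of many central and peripheral neurons, had 278, 3 and 376 counts in IANX, against 2, 0 and 0 counts in Sham. IANX 1 and IANX 3 thus stood far above the rest, while IANX 2 was at the level of Sham. Summed over each group and corrected for depth, Scn1a was 249 times as high in IANX (95% exact interval for the counts 68.5 to 2060). This and the other exact intervals given here cover counting error only, not the spread between rats. Scn10a (chr8:128298594-128416650 on the minus strand), a tetrodotoxin-resistant channel of nociceptors, had 67, 4 and 191 counts in IANX, against 2, 0 and 5 counts in Sham. It showed the same split, with IANX 2 between the Sham values. With no filter on low counts, Scn1a and Scn10a passed as higher by edgeR (log2 fold changes 7.77 and 4.79, adjusted p = 0.00996 and 0.0281), but not by limma on log2(FPKM + 1) without a filter (0.90 and 0.67, adjusted p = 0.15 and 0.211). Isl1, a transcription factor listed here with sensory neuron markers, had 309, 4 and 466 counts in IANX, against 1, 7 and 0 counts in Sham, and Pou4f1, a defining marker of sensory neurons, had 0 counts in every IANX sample and 2 counts in Sham 2 only. The summed sensory neuron list was 164 to 250 CPM in IANX and 143 to 184 CPM in Sham, and the part of other tissues in the Scn1a and Scn10a counts was not tested. Scn11a, another nociceptor channel, had 0 counts over the IANX samples and 8 over the Sham samples, 7 of them in Sham 3 and 1 in Sham 2 (95% exact interval of the ratio, IANX over Sham, 0 to 0.443), so that the difference rests on Sham 3. Scn4a, the skeletal muscle channel, had 43 counts over IANX and 29 over Sham.

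Per kilobase of gene length, Scn7a made up nearly all of the alpha subunit RNA in Sham. Its share of the summed RPKM of the 10 alpha genes was 78.9%, 97.4% and 88.3% in IANX, against 97.9%, 96.7% and 97.9% in Sham. Scn7a was at 19.1, 53.1 and 37.9 RPKM in IANX and 83.3, 73.5 and 86.3 RPKM in Sham. The rest of the family in IANX 1 was led by Scn3a (7.67%), Scn1a (5.47%), Scn8a (2.49%) and Scn10a (2.41%), and in IANX 3 by Scn1a (4.36%) and Scn10a (4.05%). In Sham the next gene was Scn9a, with 0.872%, 2.15% and 0.892%.

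**Figure D2:**
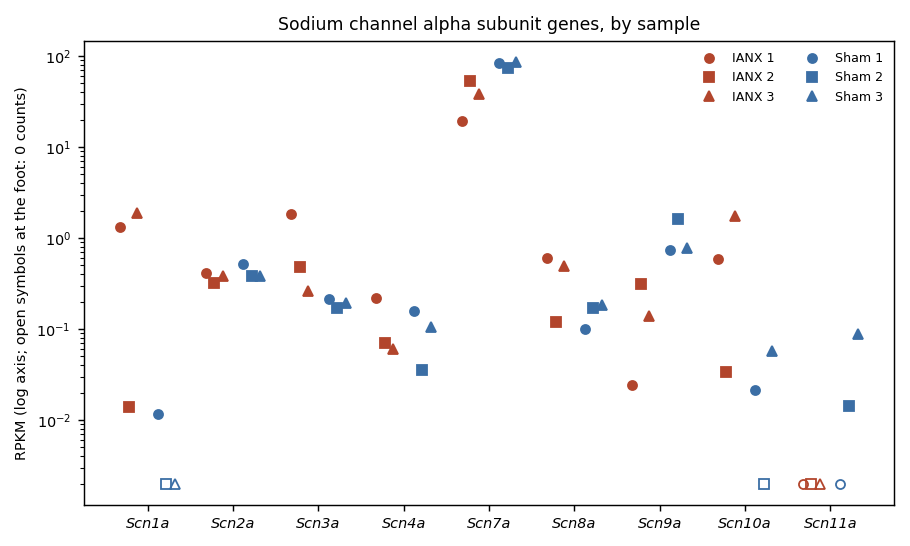
RPKM of 9 of the 10 sodium channel alpha subunit genes in each sample on a log axis (red, IANX, left of each name; blue, Sham, right; circle, square and triangle, samples 1, 2 and 3), with open symbols at the foot for 0 counts. Scn7a lies at 19.1 to 53.1 RPKM in IANX and 73.5 to 86.3 RPKM in Sham, and Scn1a and Scn10a are seen above 0.5 RPKM only in IANX 1 and IANX 3.

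Sodium channel beta subunits are cell adhesion proteins as well as partners of the pore. Scn2b (ENSRNOG00000016221, chr8:49418965-49427689 on the plus strand) had 5.21, 5.28 and 4.21 CPM in IANX, against 0.621, 0.666 and 1.26 CPM in Sham. The IANX samples were close together and far from every Sham sample (log2 fold change 2.52 ± 0.40 (SE), adjusted p = 0.00431), and Scn2b was the only higher member called in each of the 15 alternatives. Scn3b (ENSRNOG00000057221, chr8:44136496-44159010 on the plus strand) had 10.02, 19.9 and 12.8 CPM in IANX, against 6.63, 7.83 and 5.61 CPM in Sham. It was higher in every IANX sample and highest in IANX 2 (log2 fold change 1.09 ± 0.31 (SE), adjusted p = 0.0319), but not called without IANX 3 or without any 1 Sham sample (adjusted p 0.0645 to 0.113). Scn4b, below the filter, had 101, 8 and 115 counts in IANX, against 10, 6 and 2 counts in Sham, and with no filter it passed as higher by edgeR (log2 fold change 3.23, adjusted p = 0.0362) but not by limma on log2(FPKM + 1) (0.75, adjusted p = 0.159).

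The L-type calcium channel pores moved in opposite directions. Cacna1c (ENSRNOG00000007090, chr4:150641066-150829913 on the minus strand), the L-type pore of heart and smooth muscle, had 37.8, 20.05 and 45.1 CPM in IANX, against 94.2, 108 and 106 CPM in Sham. It was lower in every IANX sample and lowest in IANX 2 (log2 fold change -1.58 ± 0.29 (SE), adjusted p = 0.0069). The smooth muscle and pericyte marker sum was 760, 511 and 1079 CPM in IANX, against 1244, 1272 and 1368 CPM in Sham, with 3 of 9 lower and 1 higher, and their part in the level of Cacna1c was not tested. Cacna1d (ENSRNOG00000013147, chr16:6112150-6405117 on the minus strand), the low-threshold L-type pore of pacemaker and sensory cells, had 28.5, 6.43 and 26.3 CPM in IANX, against 2.21, 2.08 and 1.85 CPM in Sham. It was higher in every IANX sample, with IANX 2 well below the other IANX samples (log2 fold change 3.31 ± 0.56 (SE), adjusted p = 0.00537), and also passed in IANX 2 alone (log2 fold change 1.66, adjusted p = 0.0241). Cacna1s, the skeletal muscle pore, had 6.17, 0.218 and 1.896 CPM in IANX, against 1.795, 2.25 and 0.886 CPM in Sham (adjusted p = 0.573), where the skeletal muscle marker sum was 1677, 118 and 193 CPM in IANX, against 546, 353 and 99.9 CPM in Sham and 0 of 13 passed. Cacna1f, the retinal pore, had 11 counts over IANX and 1 over Sham (ratio corrected for depth 8.33, 95% exact interval 1.21 to 358).

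Of the P/Q-, N- and R-type pores, which trigger transmitter release at synapses, Cacna1e (ENSRNOG00000002863, chr13:71906702-72367980 on the minus strand), the R-type pore, was higher with the largest fold change among the tested members. It had 16.4, 0.654 and 2.37 CPM in IANX, against 0.483, 0.167 and 0.295 CPM in Sham. No samples overlapped, but the IANX samples spread widely and IANX 1 was by far the highest (log2 fold change 4.30 ± 1.23 (SE), adjusted p = 0.0325). Without IANX 1 the log2 fold change was 2.20 and the call was lost (adjusted p = 0.0702), as it was without any 1 Sham sample (adjusted p 0.0834 to 0.123). Cacna1a, the P/Q-type pore, had 10.1, 19.9 and 9.48 CPM in IANX, against 11.7, 18.9 and 16.98 CPM in Sham, which overlapped (log2 fold change -0.27 ± 0.34 (SE), adjusted p = 0.574). Cacna1b, the N-type pore, ranged from 1.02 to 3.05 CPM in IANX and 0.295 to 1.08 CPM in Sham and did not pass (adjusted p = 0.17).

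The T-type pores, which open near the resting potential, also split. Cacna1g (ENSRNOG00000060528, chr10:82129506-82197848 on the minus strand) had 169, 43.96 and 78.2 CPM in IANX, against 22.4, 20.1 and 34.04 CPM in Sham. Every IANX sample was above every Sham sample, with IANX 2 the nearest to Sham (log2 fold change 1.93 ± 0.48 (SE), adjusted p = 0.0206), and the call was lost without Sham 1 (adjusted p = 0.0736) or Sham 2 (adjusted p = 0.0904). Cacna1h (ENSRNOG00000033893, chr10:14730941-14788617 on the minus strand), the T-type pore of low-threshold mechanoreceptors and nociceptors, had 8.83, 12.7 and 9.96 CPM in IANX, against 22.99, 30.8 and 27.99 CPM in Sham. No IANX sample reached the Sham range (log2 fold change -1.38 ± 0.21 (SE), adjusted p = 0.00406). Cacna1i, below the filter, had 24, 8 and 17 counts in IANX, against 1, 1 and 3 counts in Sham, and with no filter passed as higher by edgeR (log2 fold change 2.81, adjusted p = 0.0429) but not by limma on log2(FPKM + 1) (0.15, adjusted p = 0.145).

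Cacna2d1 (ENSRNOG00000033531, chr4:15710417-16130848 on the minus strand), the alpha2delta subunit that binds gabapentin and pregabalin, had 13.6, 2.61 and 8.42 CPM in IANX, against 0.898, 0.750 and 0.591 CPM in Sham. It was higher in every IANX sample and lowest of them in IANX 2 (log2 fold change 3.44 ± 0.64 (SE), adjusted p = 0.00737), and the call held without each sample in turn but not in IANX 2 alone (adjusted p = 0.0562). Cacna2d2 had 9.17, 7.299 and 7.82 CPM in IANX, against 8.699, 6.41 and 5.69 CPM in Sham, and the groups overlapped (log2 fold change 0.22 ± 0.26 (SE), adjusted p = 0.54). Cacna2d3 and Cacna2d4 stayed between 0.163 and 2.60 CPM and did not pass (adjusted p = 0.443 and 0.34), and Cacna2d4 shares its span with Lrtm2 on the other strand.

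Calcium channel beta subunits carry the pores to the membrane. Cacnb3 (ENSRNOG00000054274, chr7:140315368-140324902 on the plus strand) was the most abundant member per kilobase in Sham and had 38.1, 34.6 and 43.97 CPM in IANX, against 196, 270.4 and 216 CPM in Sham. The gap between the groups was wide and the spread within IANX small (log2 fold change -2.55 ± 0.19 (SE), adjusted p = 0.000414). Cacnb4 (ENSRNOG00000007666, chr3:37955069-38090526 on the minus strand) had 0.736, 0.654 and 0.770 CPM in IANX, against 4.69, 2.42 and 4.73 CPM in Sham, and was lower in every IANX sample (log2 fold change -2.44 ± 0.41 (SE), adjusted p = 0.00537). Cacnb2 (ENSRNOG00000018378, chr17:81798756-82017682 on the plus strand), the main beta subunit of heart, went the other way, with 16.2, 2.83 and 13.99 CPM in IANX, against 2.002, 2.499 and 0.591 CPM in Sham. IANX 1 and IANX 3 were far above Sham, and IANX 2 just above the highest Sham sample (log2 fold change 2.70 ± 0.75 (SE), adjusted p = 0.0292). The Cacnb2 call was lost without IANX 1, IANX 3 or any 1 Sham sample (adjusted p 0.0658 to 0.0835). Cacnb1, the skeletal muscle beta subunit, had 19.2, 7.03 and 13.1 CPM in IANX, against 7.32, 12.7 and 7.53 CPM in Sham, and the groups overlapped (log2 fold change 0.51 ± 0.41 (SE), adjusted p = 0.356).

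Among the gamma subunits, several of which are better known as partners of AMPA receptors, only Cacng4 was well counted in the nerve. Cacng4 (ENSRNOG00000003262, chr10:95951234-96015499 on the minus strand) had 3.51, 7.03 and 8.297 CPM in IANX, against 52.8, 68.4 and 53.98 CPM in Sham. All IANX samples were far below all Sham samples (log2 fold change -3.22 ± 0.33 (SE), adjusted p = 0.000898). Its neighbour Cacng1, the skeletal muscle gamma subunit 16.9 kb away, had 3.28, 0.763 and 0.889 CPM in IANX, against 1.17, 0.999 and 0 CPM in Sham (adjusted p = 0.403), and Cacng5, 108 kb away on the other side, had 6 counts over IANX and 0 over Sham, where the 95% exact interval of the ratio starts at 0.891 and so includes no difference. Cacng3 had 12 counts over IANX and 2 over Sham (ratio corrected for depth 4.54, 95% exact interval for the counts 1.01 to 41.8). By sample these were 9, 2 and 1 counts in IANX, against 0, 2 and 0 counts in Sham. The groups thus overlapped, and most of the IANX counts came from IANX 1. Cacng2 had 0 counts over IANX and 1 over Sham, Cacng6 19 and 12, Cacng7 27 and 16, and Cacng8 was never counted.

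HCN channels carry the current that sets excitability after hyperpolarization. Hcn2 (ENSRNOG00000008831, chr7:12851739-12874215 on the minus strand), the cyclic AMP-sensitive form known from nociceptors, had 4.53, 2.89 and 1.78 CPM in IANX, against 8.699, 8.25 and 6.13 CPM in Sham. It was lower in every IANX sample (log2 fold change -1.32 ± 0.39 (SE), adjusted p = 0.0359), and the call was lost without IANX 3 or any 1 Sham sample (adjusted p 0.068 to 0.104). Hcn4, the cardiac pacemaker form, had 15.7, 25.1 and 37.1 CPM in IANX, against 16.2, 12.5 and 17.9 CPM in Sham, where IANX 1 lay within the Sham range. It did not pass (log2 fold change 0.74 ± 0.32 (SE), adjusted p = 0.11), although it passed as higher without IANX 1 (adjusted p = 0.0303). Hcn3 had 19 counts over IANX and 19 over Sham.

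**Figure D3:**
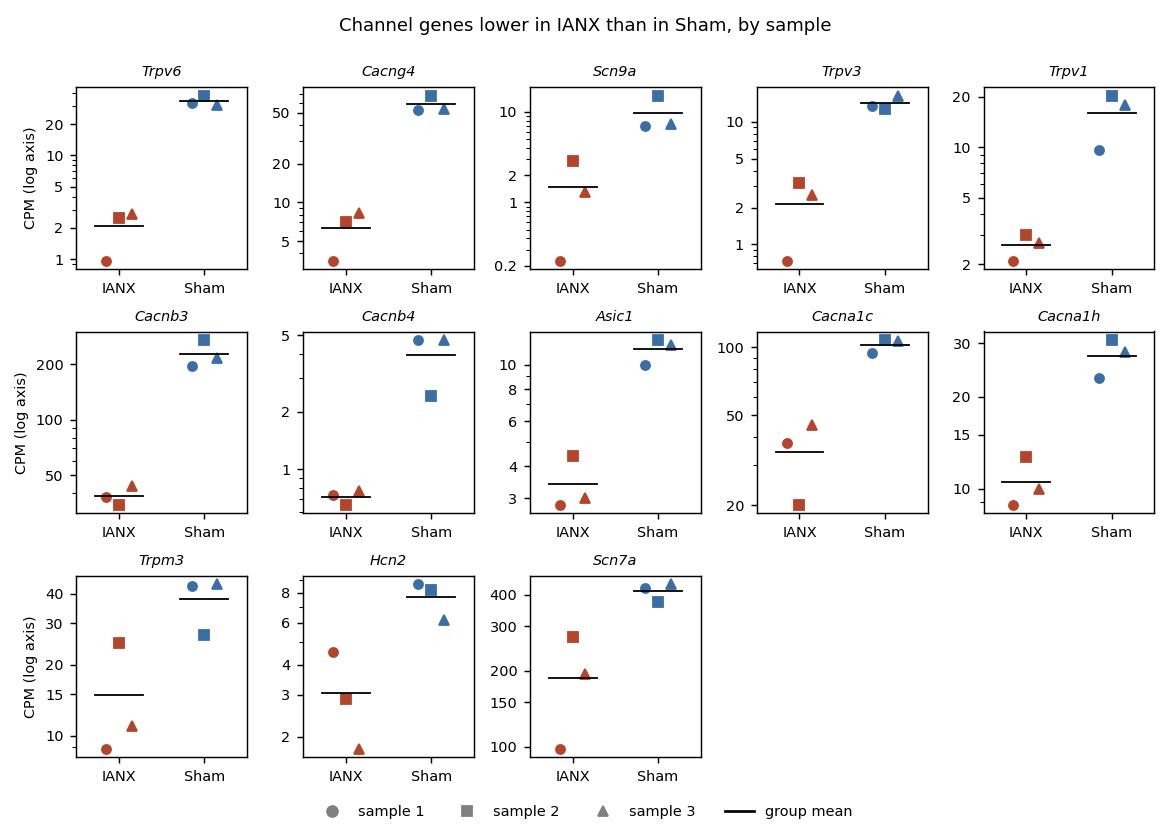
CPM on a log axis for 13 of the 15 channel genes that were lower in IANX, with IANX (red) left of Sham (blue) and 1 symbol per sample, ordered by fold change; the line is the group mean. In each panel all 3 IANX samples lie below all 3 Sham samples, as in Trpv6 (0.962 to 2.73 CPM in IANX, 30.9 to 37.7 CPM in Sham), and the closest groups are those of Trpm3 (24.8 CPM in IANX 2, 26.7 CPM in Sham 2).

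Of the TRPV channels, 3 were lower and 2 higher. Trpv6 (ENSRNOG00000014714, chr4:70918632-70934295 on the minus strand), a calcium-selective channel known from epithelia, had the largest fall of the tested members, with 0.962, 2.51 and 2.73 CPM in IANX, against 31.6, 37.7 and 30.9 CPM in Sham. The lowest Sham sample was far above the highest IANX sample (log2 fold change -4.01 ± 0.38 (SE), adjusted p = 0.000746). Its neighbour Trpv5, 13.4 kb away and the renal form of the pair, had 0 counts over IANX and 4 over Sham, where the 95% exact interval of the ratio, 0 to 1.15, includes no difference. Trpv1 (ENSRNOG00000019486, chr10:59799123-59824674 on the plus strand), the capsaicin and heat receptor, had 2.09, 2.996 and 2.67 CPM in IANX, against 9.67, 20.4 and 18.02 CPM in Sham, and was lower in every IANX sample (log2 fold change -2.63 ± 0.35 (SE), adjusted p = 0.0023). Trpv3 (ENSRNOG00000019606, chr10:59831241-59860987 on the plus strand), a warmth-activated channel of keratinocytes, lies 6.57 kb from Trpv1 on the same strand and had 0.736, 3.16 and 2.55 CPM in IANX, against 13.5, 12.7 and 16.4 CPM in Sham. It was lower by a like amount (log2 fold change -2.72 ± 0.50 (SE), adjusted p = 0.00696). Of the 6 tested epithelial markers, 5 were higher in IANX and 0 lower, and their part in Trpv3 was not tested.

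The higher TRPV genes were Trpv4 and Trpv2. Trpv4 (ENSRNOG00000001195, chr12:47698947-47737902 on the plus strand), an osmotically and mechanically activated channel of bone, cartilage, epithelium and endothelium, had 34.98, 9.15 and 24.1 CPM in IANX, against 4.42, 4.997 and 4.65 CPM in Sham. The Sham samples were tightly grouped, and IANX 2 was the IANX sample nearest to them (log2 fold change 2.28 ± 0.46 (SE), adjusted p = 0.0102). The call held without each sample in turn but not in IANX 2 alone (adjusted p = 0.0722). The bone marker sum was 2902, 2353 and 1499 CPM in IANX, against 1465, 488 and 669 CPM in Sham, with 6 of 8 tested higher. The epithelial marker sum was 1733, 37.5 and 3820 CPM in IANX, against 391, 474 and 416 CPM in Sham. The endothelial marker sum was 438, 212 and 362 CPM in IANX, against 323, 348 and 337 CPM in Sham, with 1 of 6 tested higher and 0 lower. The part of these tissues in Trpv4 was not tested. Trpv2 (ENSRNOG00000003104, chr10:48903540-48925030 on the plus strand), a channel of macrophages and large sensory neurons, had 5.15, 8.99 and 9.305 CPM in IANX, against 3.38, 3.33 and 4.73 CPM in Sham. IANX 1 was only a little above the highest Sham sample (log2 fold change 1.03 ± 0.33 (SE), adjusted p = 0.0478), and the call was lost without IANX 2, IANX 3 or any 1 Sham sample (adjusted p 0.0784 to 0.148). The Trpv2 call was also lost with RLE in place of TMM scaling, with no filter on low counts, with a replicate block and in each limma fit.

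The TRPM family held the most abundant higher member. Trpm7 (ENSRNOG00000057806, chr3:119259467-119330345 on the minus strand), a magnesium- and calcium-permeable channel fused to a kinase, had 265, 69.8 and 245 CPM in IANX, against 45.01, 24.7 and 37.7 CPM in Sham. The groups did not overlap, and IANX 1 and IANX 3 were several times above IANX 2 (log2 fold change 2.43 ± 0.50 (SE), adjusted p = 0.0106). Its call was lost without Sham 2 only (adjusted p = 0.0538), and it passed in IANX 2 alone (log2 fold change 0.98, adjusted p = 0.0458). Trpm2 (ENSRNOG00000001216, chr20:11436267-11482051 on the plus strand), an oxidant-activated channel of macrophages and other myeloid cells, had 8.09, 9.91 and 11.1 CPM in IANX, against 2.07, 1.33 and 4.65 CPM in Sham. The IANX samples were close together (log2 fold change 1.85 ± 0.46 (SE), adjusted p = 0.0209), and the call was lost without IANX 3, Sham 1 or Sham 2 (adjusted p 0.0566 to 0.0737). The macrophage marker sum was 705, 1749 and 806 CPM in IANX, against 458, 405 and 473 CPM in Sham, with 5 of 10 higher and 0 lower, and their part in Trpm2 and Trpv2 was not tested.

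Trpm3 (ENSRNOG00000027770, chr1:240355149-240757583 on the plus strand), a heat- and steroid-activated channel, had 8.77, 24.8 and 10.96 CPM in IANX, against 43.2, 26.7 and 44.01 CPM in Sham. It was lower in IANX, but IANX 2 and Sham 2 almost met (log2 fold change -1.35 ± 0.41 (SE), adjusted p = 0.0397), and the call was lost without IANX 1, IANX 3 or any 1 Sham sample (adjusted p 0.0635 to 0.118). Trpm4, a calcium-activated channel for monovalent ions, had 13.5, 15.4 and 14.6 CPM in IANX, against 10.4, 12.4 and 10.3 CPM in Sham. All IANX samples lay above all Sham samples by a small margin, and the difference did not pass (log2 fold change 0.40 ± 0.19 (SE), adjusted p = 0.147). Trpm1, known from retina and melanocytes, was at 1.03 to 2.60 CPM in IANX and 1.33 to 1.59 CPM in Sham (adjusted p = 0.729). Below the filter, Trpm5 had 34 counts over IANX and 14 over Sham, Trpm6 14 and 6, and the cold receptor Trpm8 31 and 10.

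In the TRPC family, Trpc6 (ENSRNOG00000006324, chr8:6811543-6917535 on the plus strand), a diacylglycerol-activated channel of smooth muscle and podocytes, had 8.89, 4.79 and 10.2 CPM in IANX, against 3.797, 3.33 and 3.62 CPM in Sham. It was higher, least so in IANX 2 (log2 fold change 1.15 ± 0.34 (SE), adjusted p = 0.0372), and not called without IANX 1, IANX 3 or any 1 Sham sample (adjusted p 0.087 to 0.122). Trpc1, widely expressed, had 6.96, 9.64 and 4.98 CPM in IANX, against 12.01, 10.5 and 12.6 CPM in Sham. All IANX samples were below all Sham samples without passing (log2 fold change -0.70 ± 0.29 (SE), adjusted p = 0.097), and it passed as lower without IANX 2 (adjusted p = 0.0176). Trpc2, the pheromone transduction channel of rodents, stayed between 3.32 and 4.50 CPM in all samples (adjusted p = 0.941). Trpc4 had 54 counts over IANX and 13 over Sham, Trpc5 23 and 4, Trpc7 2 and 6 (ratio corrected for depth 0.252, 95% exact interval 0.0249 to 1.41), and the irritant receptor Trpa1 10 and 14.

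The Piezo channels are the pores of rapid mechanotransduction. Piezo1 (ENSRNOG00000056786, chr19:55305496-55367353 on the minus strand), the form of vessels and other non-neuronal tissue, had 83.7, 73.4 and 94.9 CPM in IANX, against 52.4, 56.7 and 63.5 CPM in Sham. It was higher in every IANX sample, with the smallest fold change of the called members (log2 fold change 0.55 ± 0.16 (SE), adjusted p = 0.0331), and the call was lost without IANX 1, IANX 3 or any 1 Sham sample (adjusted p 0.0731 to 0.115). Piezo1 overlaps Ctu2, which lies on the other strand and had 1283 counts over all samples, and since the strand setting of the counting was not given, reads of the overlap cannot be assigned. Piezo2 (chr18:58354648-58499836 on the minus strand), the touch and proprioception channel, had 94.9, 26.3 and 33.7 CPM in IANX, against 46.6, 46.2 and 49.5 CPM in Sham. IANX 1 was above and IANX 2 and IANX 3 were below all Sham samples, and the difference did not pass (log2 fold change 0.12 ± 0.45 (SE), adjusted p = 0.855). Without IANX 1, Piezo2 passed as lower (log2 fold change -0.67, adjusted p = 0.04).

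Of the acid-sensing channels, Asic1 (ENSRNOG00000059765, chr7:141326321-141354937 on the plus strand) had 2.83, 4.41 and 3.02 CPM in IANX, against 9.94, 12.5 and 11.96 CPM in Sham. The IANX samples were all below the Sham samples (log2 fold change -1.74 ± 0.28 (SE), adjusted p = 0.00447). Asic2 (ENSRNOG00000058308, chr10:68248655-68517564 on the minus strand) had 3.28, 2.45 and 1.304 CPM in IANX, against 1.04, 0.666 and 0.443 CPM in Sham. It was higher, with IANX 3 just above Sham 1 (log2 fold change 1.70 ± 0.52 (SE), adjusted p = 0.0409), and the call was lost without IANX 1, IANX 2 or any 1 Sham sample (adjusted p 0.053 to 0.13). Asic3, the acid sensor of muscle and skin afferents, had 18 counts over IANX and 30 over Sham, and Asic4 had 35 and 19. Of the 24 members below the filter, 15 were under 1 CPM in every sample. None of the 24 was tested in the main comparison, so differences among them may have been missed.

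**Figure D4:**
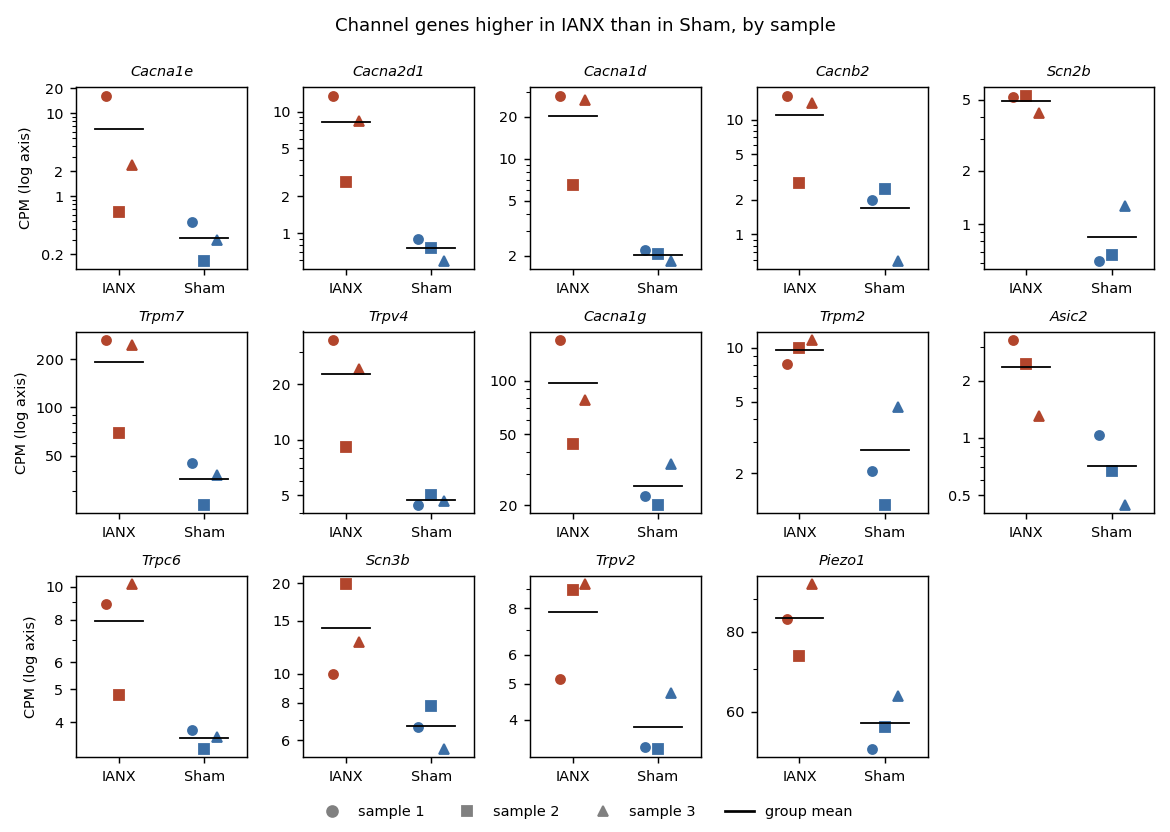
CPM on a log axis for the 14 channel genes that were higher in IANX, drawn as for the lower genes and ordered by fold change. All 3 IANX samples lie above all 3 Sham samples in each panel, and IANX 2 (square) is the lowest IANX sample in 9 of the 14, as in Trpm7 (69.8 CPM against 265 and 245 CPM in IANX 1 and IANX 3).

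Levels were compared between genes only per kilobase, as RPKM. Among the members described here, the order in IANX was led by Scn7a (36.7 ± 17.02 RPKM), Trpm7 (34.2 ± 19.01), Cacnb3 (15.4 ± 1.87), Cacna1g (12.7 ± 8.46) and Piezo1 (10.2 ± 1.32), given as mean RPKM ± SD with n = 3. In Sham it was led by Cacnb3 (90.3 ± 15.2 RPKM), Scn7a (81.02 ± 6.704), Cacng4 (14.9 ± 2.21), Cacna1c (12.8 ± 0.926) and Trpv6 (11.5 ± 1.29). Each of these 5 was within the summed SDs of the next in the IANX order. In the Sham order Cacnb3 and Scn7a were within their spreads of each other, and so were Cacng4, Cacna1c and Trpv6 with the next of them, while Cacng4 stood clear of Scn7a. Trpm7 was at 34.2 ± 19.01 RPKM in IANX and 6.34 ± 1.83 RPKM in Sham, Cacng4 at 1.599 ± 0.632 RPKM in IANX and 14.9 ± 2.21 RPKM in Sham, and Trpv6 at 0.709 ± 0.330 RPKM in IANX and 11.5 ± 1.29 RPKM in Sham.

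Neighbouring genes were looked at because several families sit in clusters. On chromosome 3, Scn9a and Scn7a, 113 kb apart and both lower, are followed by Scn1a, 73.4 kb from Scn9a, whose counts were high in IANX 1 and IANX 3, while Scn3a and Scn2a, 44.7 kb apart in the same cluster, did not pass. On chromosome 10, Trpv1 and Trpv3 were both lower (log2 fold changes -2.63 and -2.72). On chromosome 8, Scn2b was higher and Scn4b, 13.4 kb away, had its high counts in IANX 1 and IANX 3 only. Spans of 21 members overlap another gene of the table, for 15 of them on the other strand, but apart from Ctu2 in Piezo1 and Lrtm2 in Cacna2d4 the overlapping genes had at most 25 counts over all samples.

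IANX 2 was set beside the other IANX samples, with no test of a difference between the higher and the lower members. Against the Sham mean, with 0.1 CPM added to both, the median log2 ratio of the 14 higher members was 1.09 in IANX 2 and 2.31 in the mean of IANX 1 and IANX 3, whereas over all higher genes it was 1.15 and 1.48. For the 15 lower members it was -2.13 in IANX 2 and -2.24 in IANX 1 and IANX 3, and over all lower genes -1.12 and -1.39. IANX 2 was the lowest IANX sample for 9 of the 14 higher members (64.3%) and for 57.9% of all higher genes, and the highest IANX sample for 9 of the 15 lower members (60%) and for 60.5% of all lower genes. With IANX 2 as the only IANX sample, whose spread is then taken from Sham, 5 of the 48 tested members (10.4%) passed as higher and 13 (27.1%) as lower, against 12.6% of all tested genes higher and 12.8% lower. The 5 were Cacna1d, Scn2b, Scn3b, Trpm7 and Trpv2, and Piezo2 was the only one of the 13 that was not also lower in the full comparison. Without IANX 2, 14 members (29.2%) were higher and 17 (35.4%) lower, against 22.7% and 22.1% of all tested genes. The odontoblast and ameloblast marker sum differed between IANX 2 and the other IANX samples in the same direction as Cacna1e, Cacna2d1, Cacna1d, Cacnb2, Trpm7, Trpv4, Cacna1g, Trpc6 and Piezo1. So did the epithelial, skeletal muscle, smooth muscle and pericyte, and endothelial marker sums, whereas every other marker sum was lowest in IANX 1 or IANX 3. The part of any of these tissues in the 9 genes was not tested.

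**Figure D5:**
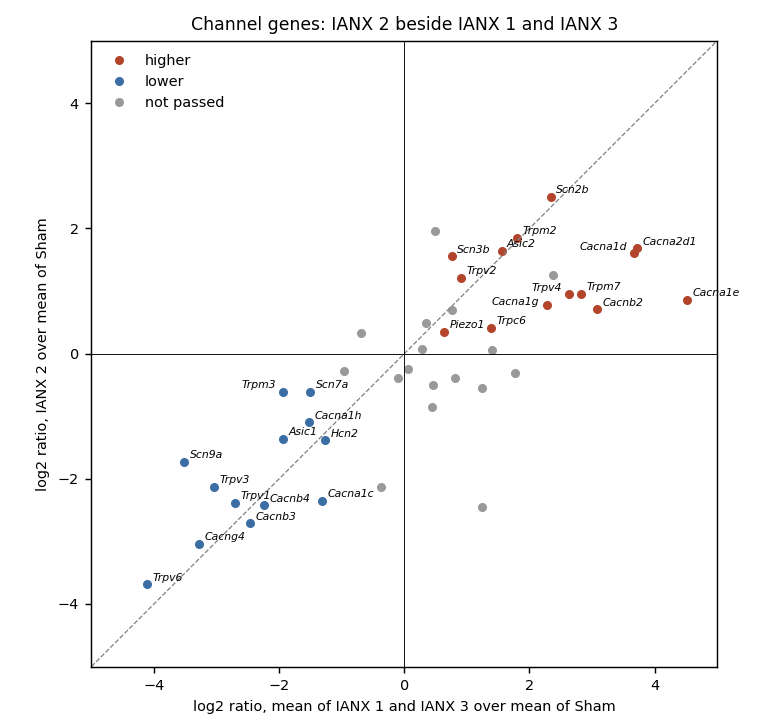
Log2 ratio to the Sham mean for 44 of the 48 tested channel genes, IANX 2 (vertical axis) against the mean of IANX 1 and IANX 3 (horizontal axis), with 0.1 CPM added and the dashed line for equal ratios (red, higher; blue, lower; grey, did not pass). The lower genes lie on both sides of the line, with medians over all 15 of -2.13 in IANX 2 and -2.24 in IANX 1 and IANX 3, and most higher genes lie below it, with medians of 1.09 and 2.31; both axes share the same Sham samples.

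Genes that act with these channels were taken from 2 lists. Of 20 listed partners and regulators, 17 were tested, 3 were higher, 3 lower and 11 did not pass, against 17.8% higher and 16.6% lower over all tested genes, so that their share was near the background. They had a median log2 fold change of -0.18. Ank3, the ankyrin that clusters sodium channels at nodes, had 57.6, 122.8 and 75.3 CPM in IANX, against 213, 147 and 201 CPM in Sham (log2 fold change -1.13 ± 0.30 (SE), adjusted p = 0.0244). Pex5l, an HCN channel subunit that governs trafficking, had 0.679, 2.83 and 1.304 CPM in IANX, against 33.6, 20.7 and 26.1 CPM in Sham (log2 fold change -4.05 ± 0.51 (SE), adjusted p = 0.00182), so that it was lower together with Hcn2. Nedd4l, a ubiquitin ligase that removes sodium channels from the membrane, had 38.3, 38.5 and 47.1 CPM in IANX, against 16.7, 15.7 and 16.3 CPM in Sham (log2 fold change 1.35 ± 0.16 (SE), adjusted p = 0.00141), and was higher in every IANX sample. Gem, a small GTPase that inhibits calcium channels, had 10.8, 19.99 and 9.07 CPM in IANX, against 5.39, 6.08 and 4.87 CPM in Sham (log2 fold change 1.29 ± 0.34 (SE), adjusted p = 0.0255), and was also higher in every IANX sample.

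Of 21 listed other sodium- or calcium-permeable channels and genes of store-operated calcium entry, 20 were matched and 17 tested, of which 2 were higher, 3 lower and 12 did not pass (median log2 fold change 0.18), against the 17.8% higher and 16.6% lower of all tested genes. The endolysosomal channels Tpcn1 and Tpcn2 were lower. Tpcn1 had 82.4, 193 and 99.9 CPM in IANX, against 233, 296 and 251 CPM in Sham (log2 fold change -1.05 ± 0.32 (SE), adjusted p = 0.0403), and Tpcn2 had 25.7, 30.7 and 34.3 CPM in IANX, against 55.4, 111 and 82.9 CPM in Sham (log2 fold change -1.46 ± 0.26 (SE), adjusted p = 0.00688). Tmem63a, a stretch-activated channel, was higher, with 31.4, 21.6 and 32.5 CPM in IANX, against 15.3, 16.4 and 15.5 CPM in Sham (log2 fold change 0.86 ± 0.20 (SE), adjusted p = 0.0168). Its relative Tmem63c was lower, with 2.38, 1.74 and 4.15 CPM in IANX, against 8.63, 14.3 and 15.2 CPM in Sham (log2 fold change -2.20 ± 0.40 (SE), adjusted p = 0.00714). Orai1, Orai2, Orai3, Stim1 and Stim2, the pore and the sensor of store-operated entry, did not pass.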

How the data were processed

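Rat inferior alveolar nerves of 3 IANX and 3 Sham samples were sequenced as paired-end poly-A libraries. The authors aligned reads with HISAT2 2.0.5 to rn6, used StringTie 1.3.3b for transcripts outside the annotation, counted with featureCounts 1.5.0-p3 and deposited raw counts per gene. The authors also deposited FPKM, each the count over gene length and 1 size per sample, and columns of their own DESeq2 1.20.0 comparison (fold changes and p-values), which were not used. Strand setting, annotation release and handling of multi-mapped reads are not given in the sources used here.

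Counts of 34106 genes were filtered with filterByExpr (15374 kept), scaled by TMM and tested two-sided by the quasi-likelihood test of edgeR 4.0.16 under R 4.3.3, IANX over Sham, with p-values adjusted by Benjamini-Hochberg over these 15374 genes and a threshold of 0.05. RPKM are TMM-scaled CPM per kilobase of the deposited gene length. DESeq2 1.42.0 and limma 3.58.1 on log2(FPKM + 1) or log2(FPKM + 0.1), for genes of FPKM at or above 1 in 3 samples or without this filter, were among 15 alternatives, with other scalings, a replicate block, leaving out each sample, and IANX 2 alone. The scripts were tested on simulated data. The members, lists and tests were chosen with earlier results of these data known. Of the 72 members, 4 are included in the counts but are not reported here by name. Described in full were members that passed and those of at least 5 CPM on average in either group, and of the lists up to 4 called genes of highest mean CPM. Isl1, Pou4f1 and the neighbours were chosen after their values were seen. The p-values measure the spread between 3 rats a group.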

Additional observations from a re-analysis of the deposited data

How the results depend on the processing

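The count of higher channel genes depended on the method and the sample, that of lower ones less so. Instead of 14, the number of higher members was 6 by limma on log2(FPKM + 1), 6 on log2(FPKM + 0.1) and 3 without its filter, where 30, 30 and 71 members were tested, 5 with IANX 2 alone, and 4 to 14 with 1 sample left out (4 without Sham 2). As shares of the members tested, these were 20%, 20%, 4.23%, 10.4% and 8.33% to 29.2%, against 14.7%, 14.4%, 7.02%, 12.6% and 7.37% to 22.7% of all genes in the same fits. The number of lower members was 10 to 17 with 1 sample left out (20.8% to 35.4%, against 10.3% to 22.1% of all genes). In all, 10 of the 15 lower members, with Asic1, Cacna1c, Cacna1h, Cacnb3, Cacnb4, Cacng4, Trpv1, Trpv3 and Trpv6 among them, and 1 of the 14 higher ones (Scn2b) passed in every alternative in which they were tested. At the single genes above, lost calls were named mainly for left-out samples. Scn3b, Piezo1 and Trpc6, like Trpv2, were also not called in any limma fit, and Cacnb2, Trpc6 and Trpm3 were not called with a replicate block.

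Over all genes, library sizes alone gave 5919 higher and 1468 lower, limma without its filter gave 1609 higher, and leaving out 1 sample gave 1133 to 3489 higher and 1578 to 3401 lower, more than 1.5 times below the full count of higher genes without IANX 3, Sham 1, Sham 2 or Sham 3 (1714, 1696, 1200 and 1133) and of lower genes without Sham 2 or Sham 3 (1664 and 1578). The log2 fold change of Piezo2 (0.12) reversed to -0.11 by limma on log2(FPKM + 1), -0.15 on log2(FPKM + 0.1), -0.11 without its filter, -0.12 with a replicate block and -0.84 in IANX 2 alone, and was -0.67 to 0.42 with 1 sample left out. In IANX 2 alone, Cacna1a was 0.34 and Cacnb1 -0.37, and Cacna1a was 0.17 with library sizes alone. Below 5 CPM, 6 members that did not pass also changed sign, among them Cacna1s (0.75) to -2.85, Cacna2d3 (0.89) to -0.61, Scn8a (1.42) to -0.32 and Trpm1 (0.22) to -0.52 in IANX 2 alone, Cacna1s to -0.65 and Trpm1 to -0.19 without IANX 1, and Scn2a (-0.20) to 0.25 and Trpc2 (-0.03) to 0.42 with library sizes alone. None of the genes that changed sign was called in the comparison, and the cause was not tested. No called member reversed in any alternative.

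Whether the replicate numbers pair the samples could not be settled from these values. Deviations of same-numbered samples correlated only weakly, at 0.0858, -0.0144 and 0.0753. IANX 1 and IANX 3 correlated best with the Sham sample of their own number, but IANX 2 with Sham 3. A replicate block gave 11 higher and 14 lower members (22.9% and 29.2%, against 14.1% and 15% of all genes), and 2175 higher and 2299 lower genes. With 3 samples a group, and 24 members below the filter, smaller differences may have been missed.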
